A study of Sus scrofa with 4 samples.

Results

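Genes that set the supply of phosphate and pyrophosphate outside the cell, together with the secreted proteins that bind mineral, were compared between cultures of pig aortic valve interstitial cells (Sus scrofa), the fibroblast-like cells of the valve matrix. The members were the 8 genes MGP, SPP1, ENPP1, ANKH, NT5E, ALPL, SLC20A1 and SLC20A2, chosen by name for their roles in mineral deposition. Of these, 7 had a row among the 14804 gene rows of the table used, and all 7 were among the 13943 genes that passed the filter on low values behind the adjusted p of the authors. ALPL, the alkaline phosphatase that splits pyrophosphate into phosphate, had no row and was not analysed here.

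The cells were a primary culture, and each group was 1 single-cell droplet library aimed at about 2000 cells. The first group received the nitric oxide (NO) donor detaNONOate at 150 µM for 5 days, and the other was a control kept in culture for 5 days. A library of cells given the donor for 3 days and then kept without it for 2 days, and a library given S-nitrosoglutathione (GSNO) at 200 µM for 5 days, were not analysed here. The series title names S-nitrosylation of USP9X, NOTCH signalling and prevention of valve calcification as its subject. How many animals stood behind the cultures is not stated in those labels.

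Calcium phosphate grows where phosphate is in supply and where inhibitors of crystal growth are lacking. Pyrophosphate is such an inhibitor: ENPP1 makes it outside the cell from ATP, ANKH supports its release from the cell, and alkaline phosphatase destroys it. NT5E makes adenosine and phosphate from the AMP that ENPP1 leaves. SLC20A1 and SLC20A2 carry phosphate into the cell, while matrix Gla protein (MGP) and osteopontin (SPP1) are secreted proteins that bind mineral. In the aortic valve, interstitial cells are studied as the cells that turn to mineral deposition.

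The values were counts per gene, given as 3 columns for each library and summed to 21289316 counts for the NO donor library and 21807024 for the control. A normalized count is a count divided by the size factor of the authors for its column. The sources used here do not say how the 3 columns came about, so they were taken as parts of 1 library. With 1 library per group there were no replicates behind the differences, and the treatment was not tested. Intervals are exact 95% intervals for counting error only. The columns scattered more than counting alone would give, with a chi-square over its degrees of freedom of 1.39 for the NO donor library against 1.37 for the control on average over genes expected to have 5 counts or more in each column, so these intervals are too narrow. The rule of size for a gene being higher or lower was a log2 ratio 0.5 or more away from 0.

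The labelled cell type was checked against its markers. All 10 listed markers of valve interstitial cells and fibroblasts had values, with normalized counts that summed to 41070 in the NO donor library against 195192 in the control. By the rule of size, 9 of them were lower and none higher. PDGFRB, a receptor of platelet-derived growth factor named after its value was seen, lay between the limits, with a log2 ratio of 0.04. Total count scaling moved it to 0.64. The 8 smooth muscle markers summed to 2815 in the NO donor library against 91635 in the control, all 8 of them lower, or 7 under total count scaling, and DES was at 0 in the NO donor library. ACTA2 and TAGLN made up most of the control sum, at 57046 and 30380. Whether these transcripts came from smooth muscle cells or from the valve interstitial cells themselves was not tested. Of 10 leukocyte markers 5 had a row, the general leukocyte marker PTPRC not among them. The 4 measured ones summed to 168 in the NO donor library against 169.7 in the control. CD14 made up most of both sums, with 151 and 160.1 in the same order. The rule of size called 2 of these 4 markers higher and 1 lower. With total count scaling it called 3 higher and 1 lower. Of 10 endothelial markers 4 had a row, CDH5 and VWF not among them, with sums of 380 in the NO donor library against 762 in the control. By the rule of size 1 of these 4, FLT1, was higher and 3 were lower, or 1 and 2 under total count scaling. Of 8 osteoblast markers 4 had a row, SP7 and IBSP not among them, and these summed to 188 in the NO donor library against 194 in the control. RUNX2 made up most of that sum, at 165 in the NO donor library against 162 in the control, and by the rule of size none of the 4 was higher and 2 were lower. Under total count scaling 2 of these 4 were higher and 2 lower.

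MGP, SPP1 and the genes of pyrophosphate and phosphate handling did not move as a block. By the rule of size 4 of the 7 measured members were lower in the NO donor library and 3 were higher. Over all 13943 measured genes, 32.0% were lower and 29.5% higher by the same rule. MGP, ANKH, ENPP1 and NT5E were the lower ones, and SPP1, SLC20A2 and SLC20A1 the higher ones. The NO donor columns and the control columns did not overlap for any of the 7, which was also true of 73.0% of all measured genes. In the authors' deposited table all 7 had an adjusted p below 0.05 from DESeq2, as had 51.1% of measured genes, and that p was computed over columns and does not test the treatment.

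**Figure D1:**
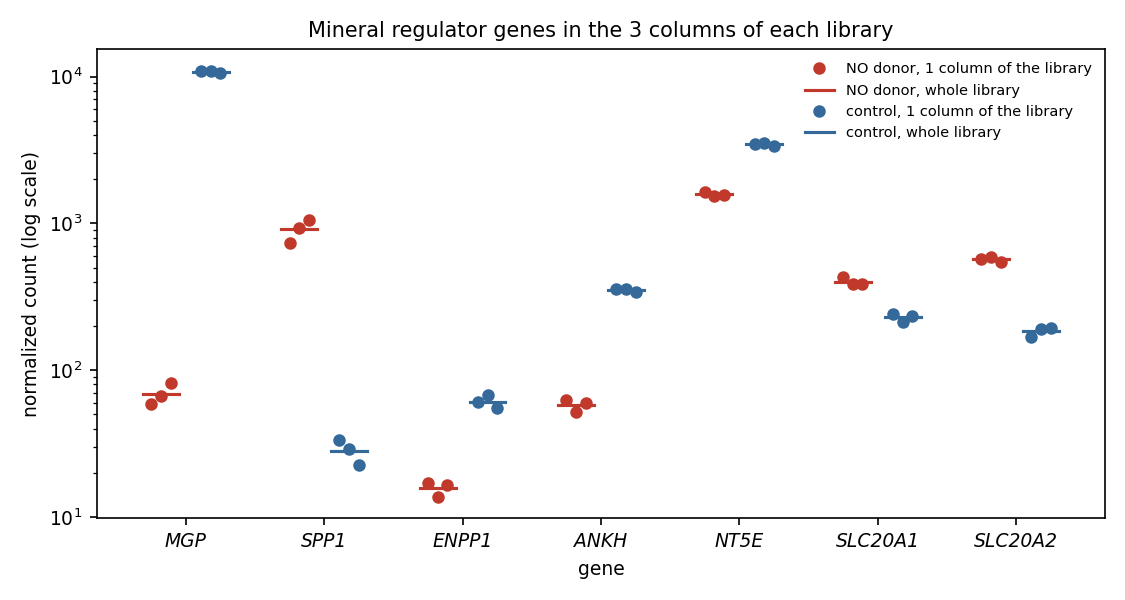
Normalized counts (vertical axis, log scale) of the 7 measured members in the NO donor library (red, left of each pair) and the control library (blue, right of each pair). Each point is 1 of the 3 columns of a library and each bar is the value of the whole library. MGP is at 69.1 in the NO donor library against 10851 in the control, and SPP1 at 910.2 and 28.1 in the same order; in no gene do the points of the libraries overlap.

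MGP encodes a small secreted protein that needs vitamin K dependent carboxylation to hold back calcification of arteries and cartilage. It is annotated on the plus strand of chromosome 5 from 57665272 to 57669360 of Sscrofa11.1. SPP1 encodes osteopontin, a phosphorylated glycoprotein that binds hydroxyapatite and integrins, on the minus strand of chromosome 8 from 131077786 to 131085334. The 250 bases before the annotated start of each gene are shown because these members had the largest differences and lay in opposite directions. The sequences run 5′ to 3′ on the strand of the gene, from the reference of the same build, and capitals mark every match to the 8 motifs searched.
MGP, chr5:57665022-57665271, plus strand: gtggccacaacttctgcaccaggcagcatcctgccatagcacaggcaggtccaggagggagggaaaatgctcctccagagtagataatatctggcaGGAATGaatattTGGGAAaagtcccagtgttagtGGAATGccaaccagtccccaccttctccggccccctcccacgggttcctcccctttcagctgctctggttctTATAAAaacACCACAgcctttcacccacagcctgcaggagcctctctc
SPP1, chr8:131085335-131085584, minus strand: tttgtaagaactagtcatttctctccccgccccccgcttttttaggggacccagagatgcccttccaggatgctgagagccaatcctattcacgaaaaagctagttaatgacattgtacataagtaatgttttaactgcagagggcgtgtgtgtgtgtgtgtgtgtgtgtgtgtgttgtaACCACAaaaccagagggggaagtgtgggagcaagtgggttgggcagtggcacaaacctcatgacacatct

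The MGP stretch holds a TATA box (TATAAA) from base -48 to -43, counted back from the annotated start. A RUNX core (ACCACA) lies from -39 to -34, an RBPJ core (TGGGAA) from -142 to -137, and 2 TEAD cores (GGAATG) from -154 to -149 and from -120 to -115. RBPJ is the DNA-binding partner of NOTCH. The SPP1 stretch holds 1 match, a RUNX core from -70 to -65. Over windows of 300 bases, from 250 before to 50 after the annotated start, a match on either strand was found for the TATA box in 11.6% of 20664 protein-coding genes, for the RUNX core in 16.4%, for the RBPJ core in 27.8% and for the TEAD core in 12.02%. A SMAD-type sequence (CAGACA), found in 15.4% of windows, was in those of SPP1, ENPP1 and SLC20A1. The core of the antioxidant response element (TGACNNNGC), found in 12.2%, was in those of NT5E and SLC20A1, and the RBPJ core was also in that of ANKH. The AP-1 site (TGAGTCA) and the CRE (TGACGTCA) had no match in the 7 windows and were found in 3.57% and 2.16% of all windows. The window of SLC20A2 had no match to any of the motifs. Such matches are short strings of letters in an annotated window and show no binding.

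The windows of the members differed in base composition. The share of G and C was 82.3% for ANKH, 78.7% for NT5E, 75.7% for SLC20A1 and 71.3% for ENPP1. It was 56.3% for MGP, 49.7% for SPP1 and 39.7% for SLC20A2, with a median of 58.0% over all windows.

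MGP was far lower in the NO donor library than in the control. Its normalized counts were 58.6, 66.5 and 82.2 in the NO donor columns, against 11004, 11016 and 10582 in the control columns. The columns of either library lay close together beside the gap between the libraries. The whole libraries held 254 counts for the NO donor and 27043 for the control, which put MGP 157-fold lower (139 to 178). Over the 9 pairings of an NO donor column with a control column, the fold ran from 129 to 188. As CPM, the count scaled to the total of its library, MGP stood at 11.9 in the NO donor library against 1240.1 in the control. Its log2 ratio of -7.30 (-7.48 to -7.12) ranked 16 from the lowest among the 13943 measured genes, and 9 among the 6972 genes in the upper part by mean, from the median of 91.7 up. In sums over a library, fewer cells of a type and less RNA per cell cannot be told apart. The smooth muscle and fibroblast markers given above were lower beside MGP, and their part in its value was not tested.

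SPP1 lay at the other end. Its normalized counts were 739, 931 and 1063 in the NO donor columns, against 33.6, 29.2 and 22.7 in the control columns. The NO donor columns differed among themselves more than counting gives, with a chi-square over its degrees of freedom of 35.7, against 0.904 for the control columns. SPP1 was 32.4-fold higher (25.6 to 41.7) in the NO donor library, with 3347 counts against 70 in the control. The lowest and highest pairings of columns gave 21.96-fold and 46.8-fold, a wider range than the counting interval. Its log2 ratio of 5.02 ranked 46 from the highest of all measured genes, and 23 among those in that upper part. SPP1 is also made by macrophages and osteoblasts. Beside it, CD14, a monocyte marker, was at 151 in the NO donor library against 160.1 in the control. The leukocyte sum given above was mostly CD14. RUNX2, the osteoblast transcription factor, had a log2 ratio of 0.03 (-0.16 to 0.21), which total count scaling moved to 0.62. The other leukocyte markers measured, named after their values were seen, went both ways: AIF1, a macrophage marker, had 35 counts in the NO donor library against 1 in the control, CD68 had 24 against 4, and TYROBP, an adaptor of myeloid cells, had 4 against 19. The 2 osteoblast markers that were lower, also named after their values were seen, were BGLAP, osteocalcin, with 8 counts in the NO donor library against 12 in the control, and DMP1, with 11 against 35. The part of such cells in the SPP1 value was not tested.

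Set against each other within a library, MGP and SPP1 stood the other way round. The ratio of SPP1 to MGP counts was 13.2 in the NO donor library against 0.00259 in the control. That is a change of 12.31 log2 units (11.93 to 12.70, by the normal approximation of the log odds ratio). A ratio of this kind does not depend on how the libraries are scaled. It ran from 12.18 to 12.43 log2 units when each column was left out in turn.

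The genes whose 6 columns were most like those of MGP or SPP1 were picked by distance. The measure was the Euclidean distance between centred log2(normalized count + 1) values, over 6660 named genes of the upper part by mean. For MGP they were RN5-8S, a ribosomal RNA gene, at a distance of 0.39 log2 units, and PSAT1, an enzyme of serine synthesis, at 0.43. The level of PSAT1 was 24.7 normalized counts in the NO donor library against 3189 in the control. For SPP1 they were PDK4, a kinase that turns off pyruvate dehydrogenase, at 0.17, and THBD, thrombomodulin, at 0.61. PDK4 was 33.4-fold higher, at 456 in the NO donor library against 13.6 in the control. THBD was 24.4-fold higher, at 1666 in the NO donor library against 68.2 in the control.

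Both genes of pyrophosphate supply were lower. ANKH, a membrane protein with many transmembrane segments, had normalized counts of 62.7, 51.9 and 60.0 in the NO donor columns, against 359, 356 and 340.3 in the control columns. The columns of each library lay near each other and far from those of the other. ANKH was 6.03-fold lower (5.19 to 7.04), and its log2 ratio of -2.59 ranked 727 from the lowest of all measured genes. ENPP1, an ectoenzyme that cleaves ATP to AMP and pyrophosphate, had 17.1, 13.8 and 16.4 in the NO donor columns, against 60.5, 68.0 and 55.1 in the control columns. It was the member with the fewest counts, 58 in the NO donor library against 152 in the control, so its 3.87-fold lower value carried the widest interval for its size (2.84 to 5.33). ENPP1 is annotated on the minus strand of chromosome 1 from 31724290 to 31796594, and ANKH on the minus strand of chromosome 16 from 4095582 to 4271073. Within a library, the ratio of ENPP1 to ANKH counts was 0.271 in the NO donor library against 0.174 in the control. These ratios were 0.64 log2 units apart (0.13 to 1.14, exact conditional interval), so ANKH was lower by a larger factor than ENPP1, by the counting interval.

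NT5E, the ecto-5′-nucleotidase CD73, was lower by a smaller factor. Its normalized counts were 1632, 1539 and 1567 in the NO donor columns, against 3471, 3562 and 3398 in the control columns. It was 2.20-fold lower (2.13 to 2.27), at 1579 in the NO donor library against 3474 in the control. NT5E is on the plus strand of chromosome 1 from 54400786 to 54450743. Its log2 ratio of -1.14 ranked 2518 from the lowest. With libraries scaled by their total counts it was -0.54, close to the rule of size, at a CPM of 273 in the NO donor library against 397 in the control. The ratio of NT5E to ENPP1 counts was 100.1 in the NO donor library against 57.0 in the control, 0.81 log2 units higher (0.37 to 1.28), so ENPP1 was lower by a larger factor than NT5E.

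Both phosphate importers were higher, SLC20A2 by more than SLC20A1. SLC20A2, the transporter PiT-2, had normalized counts of 573, 591 and 548 in the NO donor columns, against 168, 191 and 193 in the control columns. It was 3.09-fold higher (2.79 to 3.42), with a log2 ratio of 1.63 that ranked 909 from the highest. SLC20A1, the transporter PiT-1, had 430.0, 388 and 385 in the NO donor columns, against 243, 214 and 236 in the control columns. It was 1.74-fold higher (1.58 to 1.92), with a log2 ratio of 0.80 that ranked 2733 from the highest, below 1 log2 unit. The ratio of SLC20A2 to SLC20A1 counts was 1.42 in the NO donor library against 0.802 in the control, which is 0.83 log2 units higher (0.62 to 1.03). SLC20A1 is on the minus strand of chromosome 3 from 43844716 to 43860547, and SLC20A2 on the minus strand of chromosome 17 from 11435435 to 11549623.

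**Figure D2:**
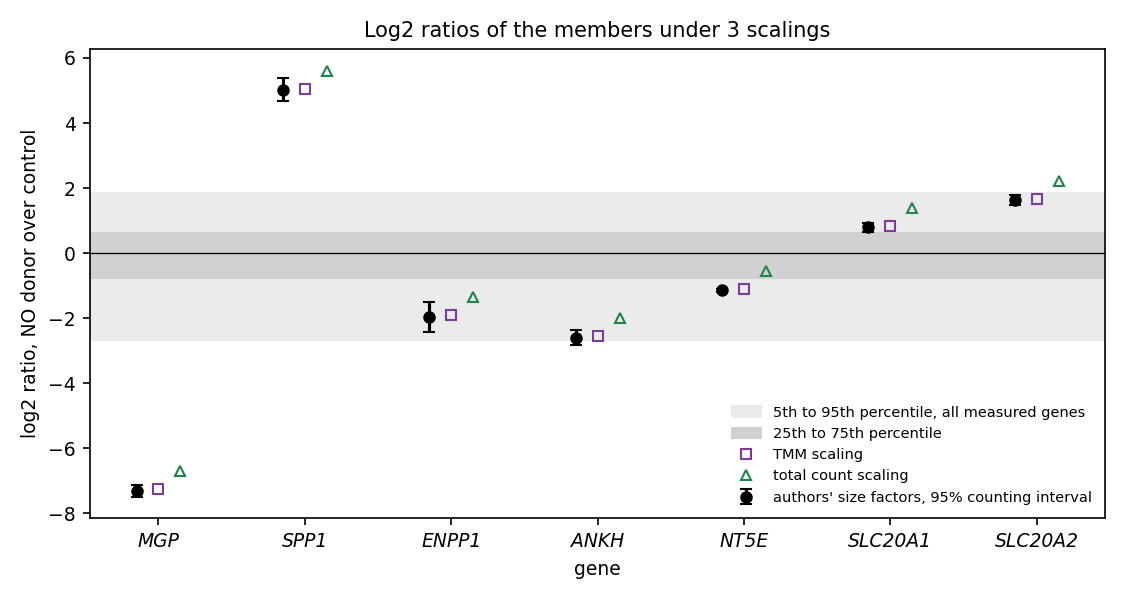
Log2 ratio of the NO donor library over the control (vertical axis) for each member, with the size factors of the authors and the 95% counting interval (filled circles), with TMM scaling (squares) and with total count scaling (triangles). Grey bands hold the 5th to 95th and the 25th to 75th percentiles of all measured genes at the scaling of the authors. MGP and SPP1 lie outside the wider band under every scaling shown. The SLC20A2 triangle, at 2.22, lies above the band drawn, but total count scaling moves all genes up. At that scaling the 95th percentile of all measured genes is 2.45, so SLC20A2 lies below it.

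Scaling moved every log2 ratio by the same amount and turned no member round. Total count scaling added 0.60 to each, and the median of all measured genes was then 0.60 in place of 0.00. TMM, a trimmed mean scaling from edgeR, added 0.04. Relative to the median of all genes the members therefore kept their places. Under total count scaling 4 members were lower and 3 higher by the rule of size, with 18.6% of all measured genes lower and 53.9% higher. At the 0.5 rule the split over all genes thus depended on the scaling, and that of the members did not. With a size rule of 1 log2 unit the members' split also changed. It went from 2 higher and 4 lower to 3 higher and 3 lower under total count scaling.

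The genes beside the members on the chromosomes went the same way as their member in 10 of 14 cases, by the sign of the log2 ratio alone and with no test. The median log2 ratio of all measured genes was 0.00, so about as many lay under 0 as above it at this scaling. How often neighbours share a sign over all genes was not computed. Several of the 10 rest on few counts, as given below, and nothing about the regions is read from the count. These neighbours, the nearest measured gene on each side in the annotation, were chosen after the values of the members had been seen. Total count scaling also gave 10 of 14, though it turned PKD2 and SNX14 round. Beside MGP, ERP27 had 0 counts in the NO donor library against 13 in the control, and WBP11, 80.6 kb away, had 0.42 (0.30 to 0.53). Both neighbours of SPP1 went the other way. PKD2, 18.9 kb from it, had -0.29 (-0.39 to -0.19), or 0.31 under total count scaling. DMP1, of the same family of mineral-binding proteins and 199.9 kb away, had -2.23 (-3.36 to -1.22).

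Beside the lower members of pyrophosphate and adenosine supply all 6 neighbours had ratios under 0. CTGF, a matricellular protein gene 46.6 kb from ENPP1, had -2.85 (-2.91 to -2.80), and ENPP3, of the same enzyme family, had only 2 counts in the NO donor library against 6 in the control. FBXL7, 513 kb from ANKH, had -1.16 (-1.63 to -0.70), and the uncharacterized gene on its other side had 4 counts in the NO donor library against 5 in the control. TBX18, a transcription factor gene 533 kb from NT5E, had -2.19 (-2.44 to -1.95). SNX14, 9.90 kb from NT5E, had -0.29 (-0.40 to -0.18), or 0.30 under total count scaling. Beside the importers, CHCHD5 near SLC20A1 had 0.34 (0.25 to 0.42), and NT5DC4 on its other side had 11 counts in the NO donor library against 2 in the control. VDAC3, 10.04 kb from SLC20A2, had 0.49 (0.42 to 0.56). SMIM19 starts 283 bases from the annotated start of SLC20A2 and runs the other way, and it had -0.81 (-0.89 to -0.73), against 1.63 for SLC20A2.

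**Figure D3:**
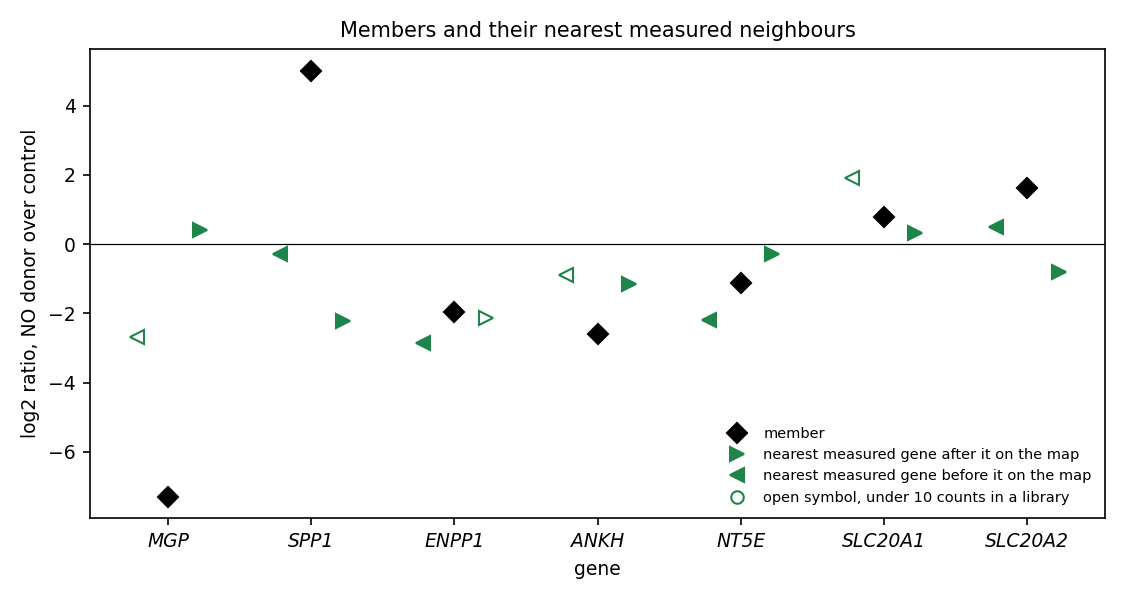
Log2 ratio of the NO donor library over the control (vertical axis) for each member (diamonds) and for the nearest measured gene before and after it on the chromosome (triangles, open where a library had fewer than 10 counts). Of the 14 neighbours 10 lie on the same side of 0 as their member, and SPP1 at 5.02 stands between neighbours at -0.29 and -2.23. The median of all measured genes is 0.00, and the share of such pairs over all genes was not computed.

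The other genes of these pathways were taken from 8 lists with 137 genes in all, of which 97 were measured. By the rule of size 32 of them were higher and 31 lower, or 32.99% and 31.96%, close to the 29.5% and 32.0% over all measured genes, and their median log2 ratio was 0.10 beside 0.00 over all genes. Total count scaling called 51 of the 97 higher by that rule and 21 of them lower, around a median of 0.69 (all genes, 0.60). By list, in the order given next, total count scaling put 9 higher and 3 lower among the pyrophosphate genes, 7 and 3 among those of adenosine, 6 and 0 among the nucleotide receptors, and 8 and 0 in phosphate transport. It put 7 and 1 among the phosphatases, 3 and 3 in the vitamin K cycle, 8 and 6 in the osteopontin list, and 3 and 5 among the other inhibitors. Single lists were small, and nothing particular to a list is read from its count.

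Of 19 measured genes that handle pyrophosphate and extracellular nucleotides, 5 were higher and 5 lower, and the median log2 ratio was -0.20. That median had no stable sign: it was 0.28 without control column 2, 0.03 without NO donor column 1 and 0.39 under total count scaling. ENTPD7, an intracellular nucleotide phosphatase, was 3.17-fold higher (2.82 to 3.59), at 418 in the NO donor library against 132 in the control. PPA1, the cytosolic pyrophosphatase, was 1.83-fold lower (1.72 to 1.96) and NUDT3, a diphosphoinositol phosphatase, 1.69-fold lower, while ENTPD4 was 1.42-fold higher. Under total count scaling the log2 ratios of PPA1 and NUDT3 were -0.28 and -0.16, within the rule of size. PANX1, a channel that releases ATP, named after its value was seen, had 268 counts in the NO donor library against 36 in the control, or 2.33 log2 units (1.83 to 2.88). ENTPD5 and ENTPD1, likewise named later, were lower, with 42 and 51 counts in the NO donor library against 100 and 91 in the control. Their log2 ratios were -1.81 and -1.40. ABCC6, a transporter needed for release of ATP by the liver, had no row.

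Of 11 measured genes of adenosine handling, 4 were higher and 3 lower and the median was 0.22. PNP, the purine nucleoside phosphorylase that uses phosphate to split inosine and guanosine, was 14.9-fold higher (12.1 to 18.6). Its normalized counts were 561, 528 and 600.0 in the NO donor columns, against 36.3, 35.2 and 41.1 in the control columns. The 3 lower genes, named after their values were seen, were ADA, SLC29A1 and SLC29A4. They had 0, 45 and 3 counts in the NO donor library against 23, 93 and 8 in the control. ADORA2B, an adenosine receptor, AHCY, which splits S-adenosylhomocysteine, and ADK, adenosine kinase, had log2 ratios of 0.19, 0.22 and -0.34, which total count scaling moved to 0.78, 0.82 and 0.26. Of 8 measured receptors for ATP and other nucleotides, 5 were higher and 1 lower and the median was 0.71. P2RY1, a receptor for ADP, was 2.11-fold higher (1.80 to 2.49). P2RX4, an ATP-gated channel, had a log2 ratio of 0.19, or 0.79 under total count scaling.

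Phosphate transport and sensing outside the importers gave 3 higher and 3 lower of 12 measured genes, with a median of 0.22. SLC25A3, the phosphate carrier of mitochondria, was 1.73-fold lower (1.70 to 1.77), at 4973 in the NO donor library against 8618 in the control. PPIP5K2, a kinase of inositol pyrophosphates, was 1.83-fold lower. Under total count scaling these came to -0.20 and -0.28 log2 units, within the rule of size. IP6K1 and IP6K2, other kinases of that class, had log2 ratios of 0.33 and 0.26, which total count scaling moved to 0.93 and 0.86. XPR1, the phosphate exporter, named after its value was seen, had 275 counts in the NO donor library against 90 in the control and a ratio of 1.05 log2 units (0.70 to 1.41), higher like the importers.

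Of 11 measured phosphatase and matrix vesicle genes, 2 were higher and 1 lower and the median was 0.10. PHOSPHO2 was 2.13-fold higher and SMPD2, a sphingomyelinase, 1.90-fold higher. ANXA6, an annexin of matrix vesicles in cartilage, was 2.80-fold lower (2.63 to 2.99), and ACP1, a low molecular weight phosphatase, had -0.50, just within the rule of size, and 0.10 under total count scaling. PHOSPHO1, the phosphatase of matrix vesicles, named after its value was seen, had 5 counts in the NO donor library against 1 in the control and was not measured by the filter.

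Of 11 measured genes of the vitamin K cycle and Gla proteins outside MGP, 3 were higher and 5 lower and the median was -0.40, or 0.20 under total count scaling. VKORC1, which recycles vitamin K for the carboxylation of MGP, was 3.83-fold lower (3.61 to 4.08), with normalized counts of 362, 437 and 389.6 in the NO donor columns and 1492, 1510 and 1549 in the control columns. Its paralogue VKORC1L1 was 1.51-fold higher (1.32 to 1.74). PROS1, the Gla protein protein S, was 3.99-fold lower, and PRRG1, a membrane Gla protein, 1.47-fold higher. GGCX, the carboxylase itself, named after its value was seen, had a log2 ratio of -0.36 (-0.50 to -0.22), or 0.24 under total count scaling.

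Among the osteopontin family and its kinases, proteases and receptors, 7 of 17 measured genes were higher and 8 lower and the median was -0.30. It ran from -0.62 to -0.02 as single columns were left out, lowest without NO donor column 3 and highest without NO donor column 2, and was 0.30 under total count scaling. ITGA8, the integrin alpha 8 chain, was 17.2-fold lower (15.6 to 19.0), at 118 in the NO donor library against 2023 in the control. ITGB5, the integrin beta 5 chain, was 4.04-fold higher (3.69 to 4.42), at 902 in the NO donor library against 224 in the control. Of 7 measured integrin chains ITGB5 alone was higher and 6 were lower, or 5 under total count scaling. Over all measured genes 32.0% were lower, or 18.6% under total count scaling. The chains were not planned as a list of their own. ITGAV, the alpha chain that pairs with beta 5, had a log2 ratio of -1.27 (-1.40 to -1.14). ITGB1, ITGB3 and ITGA5, other chains of osteopontin receptors, had -1.08, -1.83 and -1.39, and ITGA4 had 4 counts in the NO donor library against 6 in the control. These 5 chains were named after their values were seen. CD44, an osteopontin receptor outside the integrins, likewise named later, was higher, at 0.84 log2 units (0.78 to 0.89), or 1.43 under total count scaling. PLAU, urokinase, was 4.70-fold higher (4.50 to 4.92). MMP3, a protease that cleaves osteopontin, had 1006 counts in the NO donor library against 1 in the control, a ratio of 682 (122 to 26956). FAM20C, the kinase that phosphorylates osteopontin, also named after its value was seen, had a log2 ratio of -0.08 (-0.20 to 0.05), or 0.52 under total count scaling.

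The remaining mineral inhibitors and regulators gave 3 higher and 5 lower of 8 measured genes, with a median of -1.62. SMAD7, an inhibitor of TGF-beta and BMP signalling, was 4.06-fold lower (3.55 to 4.65), at 81.3 in the NO donor library against 330.2 in the control. CHRDL1, a BMP antagonist, was 3.99-fold lower (3.73 to 4.28), at 298 in the NO donor library against 1189 in the control. Other BMP antagonists in the list, GREM1 and NOG, named after their values were seen, had 25 and 19 counts in the NO donor library against 2 and 4 in the control. TNFRSF11B, osteoprotegerin, likewise named later, had 11 counts in the NO donor library against 25 in the control, and AHSG, fetuin-A of the liver, had no row.

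**Figure D4:**
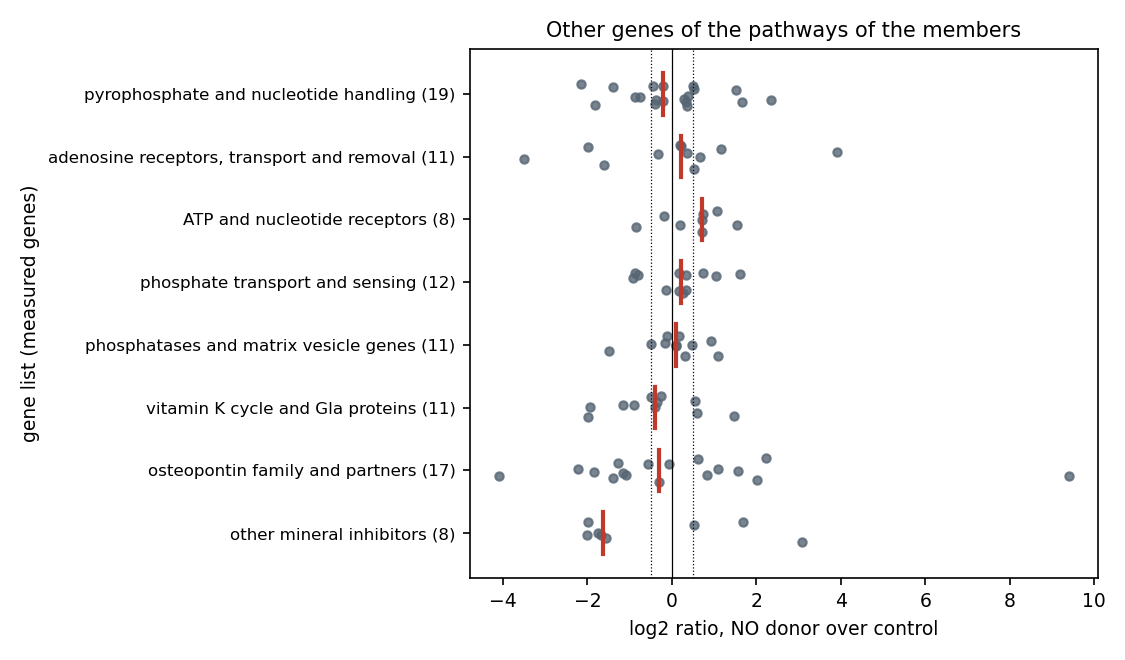
Log2 ratio of the NO donor library over the control (horizontal axis) for the measured genes of 8 pathway lists, 1 point per gene, with the number measured in brackets. Red bars are the list medians and dotted lines the rule of size at 0.5; the medians run from -1.62 for the other mineral inhibitors to 0.71 for the ATP and nucleotide receptors.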

How the data were processed

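Single-cell droplet libraries of pig aortic valve interstitial cells were sequenced, and Sscrofa11.1, DESeq2, Seurat 3.0 and Cell Ranger are named in the submitters' processing notes without their roles. The deposited table gives, per the file headers, 3 columns of size-factor normalized counts for each of 2 libraries, a signal per gene, and their mean. The authors' log2 fold change with its error, the Wald score, and the p-value and adjusted p-value are DESeq2 results in the authors' table, per the file headers. How cells and doublets were filtered and whether strand was used in counting is not given in the sources used here.

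Within 0.01, 100% of values in each column were whole multiples of its smallest value above 0, and this step gave the counts. Column totals ran from 7064703 to 7151367 for the NO donor and from 6486628 to 8067661 for the control. Counts of a library were summed over its columns and divided by the summed size factors; the log2 ratio is NO donor over control, with a floor of 3 counts for a library at 0. Levels carry exact Poisson intervals and ratios exact binomial (Clopper-Pearson) intervals. No count model was fitted, since the 3 columns were taken as parts of 1 library. The calculation was tested on simulated data.

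Measured genes are the 13943 rows with an adjusted p-value in the authors' table. Named genes are the members, up to 4 genes per list, those farthest from a log2 ratio of 0 with a mean of at least 91.7, and the 2 genes nearest to MGP and to SPP1; others are stated as named later. The value of 1 osteoblast marker is not reported here. The members and lists were chosen with earlier results of these data known. All 7 measured members matched the RefSeq annotation of Sscrofa11.1, from which coordinates (1-based) and sequences were read. Levels were compared within a gene, apart from the ratios of counts between 2 members and the sums over markers. The alternatives were edgeR TMM and total count scaling, the authors' log2 fold change, columns left out, another size rule, other filters, added counts and column medians. Python 3.11.15, scipy 1.17.1 and edgeR 4.0.16 were used.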

Additional observations from a re-analysis of the deposited data

How the results depend on the processing

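All 7 members kept their direction and their side of the 0.5 rule under each alternative run that kept that rule, with 3 higher and 4 lower members each time. With a size rule of 1 log2 unit 2 were higher and 4 lower, since SLC20A1 lay below it, and with total count scaling as well 3 were higher and 3 lower. Total count scaling moved their log2 ratios beyond the counting interval, to -6.70 for MGP, 5.61 for SPP1, -1.36 for ENPP1, -1.997 for ANKH, -0.54 for NT5E, 1.39 for SLC20A1 and 2.22 for SLC20A2, by construction of the scaling. Over the genes of the 8 pathway lists the count of higher genes, 32, became 51 under total count scaling, 18 with a size rule of 1 log2 unit and 12 among genes at or above the median mean, and the count of lower genes, 31, became 14 among the latter set, since fewer genes were counted there. With single columns left out, the log2 ratio of SPP1 ran from 4.86 to 5.15 and that of MGP from -7.44 to -7.19. List medians moved more: that of the pyrophosphate genes ran from -0.20 to 0.28, that of the osteopontin list from -0.62 to -0.02 and that of the nucleotide receptors from 0.45 to 0.74. The ratios between members stayed within their counting intervals in every alternative run. The planned ratios with ALPL gave no value, since it had no row. No paired analysis was possible because each group was 1 library. Depth limits ENPP1 most, with 58 counts in the NO donor library.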
